A study of Mus musculus with 6 samples.

Results

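The interferon-stimulated genes described here are 71 of the 23306 genes measured in T-ALL, a leukaemia of immature T cells, in mice with and without Phf6. They were chosen by symbol: the families whose names start with Ifit, Oas, Gbp, Irgm, Ifi2, Trim30 or Slfn, and 15 single genes from Bst2 to Zbp1. Of the 75 genes with such a symbol, 71 had a mean of at least 3 normalised reads, the deposited unit, which is a read count divided by 1 size factor per library. The 4 genes under this limit were Oas1e (mean 2.84), Ifi27l2b (2.33), Oas1d (2.14) and Ifit3b (1.87). PolyA RNA was sequenced from 3 tumours with wild-type Phf6 and 3 with Phf6 knocked out, all of them one isogenic T-ALL on the C57BL/6 strain, harvested from bone marrow. Per the labels, Phf6 was deleted by a tamoxifen-inducible Cre, and animals received tamoxifen or corn oil alone by intraperitoneal injection. The labels do not say which injection each library had, so gene loss and exposure to tamoxifen cannot be told apart. They also do not say that the libraries of a group came from separate animals, so p-values measure only the spread between these samples.

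Between 46067511 and 54953145 reads were assigned to genes per library. Phf6, which encodes a chromatin-bound PHD finger protein, was at 5508, 4240 and 5075 normalised reads in wild-type libraries 1 to 3 and at 1781, 2337 and 1755 in knockout libraries 1 to 3. It fell by 1.34 ± 0.13 (SE) on the log2 scale (limma, adjusted p = 0.00184), and every knockout library kept some reads. The summed level of 15 T-lineage markers was 8025, 7865 and 8103 CPM (read counts scaled to library size) in the wild-type and 7502, 6637 and 6698 in the knockout libraries, without overlap. Of the 15, Cd247, Tcf7 and Cd5 fell, 0 rose and 4 had a positive log2 fold change in limma, and Cd3e was between 16560 and 21008 normalised reads in all libraries. Markers of several other cell types were higher in the knockout libraries.

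Interferons are secreted proteins that bind receptors on the cell surface and act through JAK kinases and STAT factors. Type I interferon assembles a complex with IRF9 that binds the interferon-stimulated response element (ISRE), while interferon gamma acts at gamma-activated sites (GAS). The induced genes include sensors of viral nucleic acid, proteins that block viral entry, translation or budding, and large GTPases that attack vacuoles holding microbes. Several, such as the Slfn and Ifi200 families, are also expressed in resting leukocytes.

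The promoters of the members show how far they share the ISRE. RefSeq promoter windows (GRCm38.p6, 250 bases before to 50 after the start) were found by symbol for 53 of the 71 members. The ISRE core, a pair of GAAA repeats with any 2 bases between them, searched on both strands, was in the window of 33 of these 53 genes (62.3%) and of 1079 of 27025 genes in all (3.99%). The GAS core, TTC and GAA with any 3 bases between them, which reads the same way on both strands, was in 9 of 53 members (17.0%) and in 9.55% of all genes. The stretches below are those of members described in the results, printed 5′ to 3′ along the gene's strand, with the ISRE core, or for Ifitm6 the GAS core, in capitals. The ISRE core appears as a pair of TTTC repeats where it lies on the other strand, and overlapping cores run together. A match describes letters only.
Bst2, chr8:71537562-71537627, minus strand, 2 ISRE cores, the first of them overlapped by a GAS core that begins in the lower-case letters before it: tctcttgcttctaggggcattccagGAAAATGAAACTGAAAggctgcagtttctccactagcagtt
Isg15, chr4:156200850-156200921, minus strand, 3 ISRE cores: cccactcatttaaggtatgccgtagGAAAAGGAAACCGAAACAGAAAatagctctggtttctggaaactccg
Rsad2, chr12:26456538-26456597, minus strand, 1 ISRE core: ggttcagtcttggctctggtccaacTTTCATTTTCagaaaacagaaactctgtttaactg
Ifit1, chr19:34640760-34640838, plus strand, 2 ISRE cores: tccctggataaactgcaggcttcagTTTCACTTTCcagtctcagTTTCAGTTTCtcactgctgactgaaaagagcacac
Ifit3, chr19:34583348-34583441, plus strand, 2 ISRE cores: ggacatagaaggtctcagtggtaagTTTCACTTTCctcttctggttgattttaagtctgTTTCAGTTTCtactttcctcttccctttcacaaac
Ddx60, chr8:61928009-61928086, plus strand, 2 ISRE cores: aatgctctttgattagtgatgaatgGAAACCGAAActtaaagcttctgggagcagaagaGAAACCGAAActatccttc
Ifi213, chr1:173599311-173599370, minus strand, 1 ISRE core: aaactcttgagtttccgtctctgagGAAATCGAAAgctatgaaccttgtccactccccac
Ifitm6, chr7:141016893-141016927, minus strand, 1 GAS core and no ISRE core: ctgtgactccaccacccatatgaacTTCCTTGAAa
Slfn4, chr11:83175086-83175185, plus strand, neither core, last 100 bases before the start: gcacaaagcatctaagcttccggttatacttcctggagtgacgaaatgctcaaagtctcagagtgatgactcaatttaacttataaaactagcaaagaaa
Of the 3 members that rose in the knockout tumours, 1 held an ISRE core in its window, Ifitm3, whose 2 cores begin after the start. Of the members that fell, Bst2 held the cores printed above and Ifi27 had no window. Among the members that did not pass the test, 29 of 43 with a window held one.

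Most interferon-stimulated genes differed little between the genotypes. Of the 71 members, 64 reached 10 normalised reads in at least 3 libraries and were tested. Ifitm3, Ifitm10 and Slfn4 rose and Bst2 and Ifi27 fell, which makes 5 of 64 (7.81%) beside 8.75% of all 17993 genes tested (limma on log2(value + 2), Benjamini-Hochberg adjusted p under 0.05). The members' share of calls was thus near the background. In edgeR, 3 of 64 members (4.69%) were called, all of them higher, beside 8.16% of all genes. Of all genes, 2.84% fell in edgeR. At an unadjusted p under 0.05 in edgeR, 4 members were lower, and the share of all genes there was not counted. In DESeq2, 9 of 64 rose (14.1%) beside 7.39% of all genes, and 2 of 64 fell beside 5.02%. At an unadjusted p under 0.05 in limma stood 17 of 64 members (26.6%) and 25.2% of all genes. By direction, 3 of 64 rose beside 5.32% of all genes, and 2 of 64 fell beside 3.43%. With library totals as the only scaling, all genes split into 1213 that rose and 300 that fell, where the deposited scaling gave 957 and 618, and among members 6 rose and 0 fell. In 50 of 64 members (78.1%) the difference was under 0.5 on the log2 scale, and this share was not counted over all genes.

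The small differences leaned one way. The log2 fold change was positive in 51 of 64 members (79.7%) and in 48.3% of all genes tested. Its median was 0.25 over the members and -0.01 over all genes. Relative to the wild-type mean, the members' median stood at 0.12, -0.09 and 0.00 in wild-type libraries 1 to 3 and at 0.02, 0.17 and 0.40 in knockout libraries 1 to 3. Knockout library 3 was the highest and knockout library 1 lay within the wild-type range. Without knockout library 3 the median was 0.11, with 46 of 64 positive. The ranges of the 2 groups did not overlap in 20 of 64 members (31.2%), the same share as in all genes (31.2%), with the knockout libraries above in 16 of 64 (2692 of all 17993 genes) and below in 4 of 64 (2921 of 17993, or 16.2%). The summed level of all 71 members was 1540.1, 1262 and 1501 CPM in wild-type libraries and 1559, 1439 and 1658 in knockout libraries (exact permutation p = 0.4, 2-sided, where 3 against 3 cannot go below 0.1). The most abundant members, led by Ifi204, Ifi203, Slfn2 and Slfn9, weigh most in this sum, and low members hardly enter it.

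**Figure D1:**
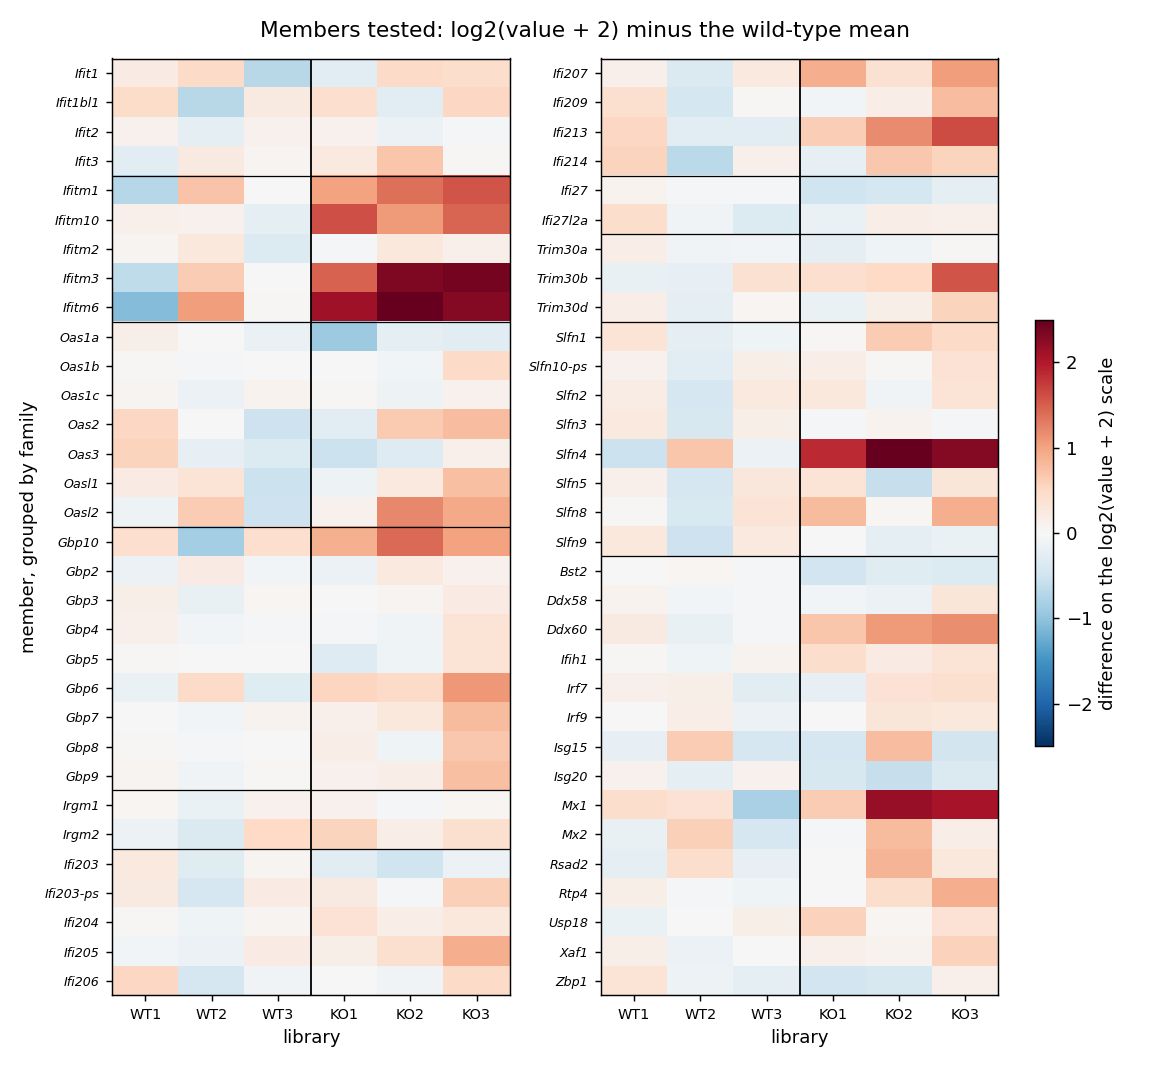
Each row is 1 of the 64 members tested and each column 1 library; colour gives log2(value + 2) minus the mean of the 3 wild-type libraries, blue below and red above it, and horizontal lines separate the families. Strong red is limited to a few rows, among them Ifitm3, Ifitm6, Slfn4 and Mx1, and most rows are pale in all 6 libraries.

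The Ifitm genes encode small membrane proteins, some of which block the entry of enveloped viruses. This family held 2 of the 3 members that rose, and its median log2 fold change of 1.37 over 5 tested genes was the highest of the families. Ifitm3 (chr7:141009586-141010770 of GRCm38, minus strand), the best known entry inhibitor, was at 43.0, 106 and 67.8 normalised reads in the wild-type libraries and at 191, 351 and 366 in the knockout libraries. All knockout libraries lay above all wild-type libraries. The mean rose 4.19-fold, from 72.2 ± 31.5 to 303 ± 97.1 (SD, n = 3 each). On the log2 scale the difference was 2.07 ± 0.36 (SE), with an adjusted p of 0.0129 in limma. The call was lost without knockout library 3 (adjusted p = 0.0810).

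Ifitm10 (chr7:142325837-142373753, minus strand), a distant and less studied relative, was low at 10.01, 9.88 and 7.23 normalised reads in the wild-type and 31.3, 20.8 and 28.1 in the knockout libraries. The groups did not overlap, and it rose by 1.37 ± 0.32 on the log2 scale (limma adjusted p = 0.0274). Its exons overlap those of Gm49369 on the same strand, and reads of these genes may be split between them. The call was lost without wild-type library 1 (adjusted p = 0.0826) or 3 (0.0948) and without knockout library 1 (0.0827) or 3 (0.109).

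Ifitm6, a family member known from myeloid cells, had 119, 527 and 260.3 normalised reads in the wild-type and 1113, 1576 and 1252 in the knockout libraries. The groups were far apart, but the wild-type libraries spread widely among themselves. The log2 fold change of 2.34 ± 0.56, the highest of all members tested, did not pass in limma (adjusted p = 0.0728) or edgeR (0.0909) and passed in DESeq2 (0.00475). In limma it passed without wild-type library 1 (adjusted p = 0.0456) or 2 (0.00504).

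Ifitm1, an entry inhibitor found at the cell surface, had 12.0, 35.6 and 20.8 normalised reads against 43.8, 57.1 and 66.2, again without overlap. Its log2 fold change of 1.32 ± 0.36 missed the threshold in limma (adjusted p = 0.0535) and edgeR (0.0614) and passed in DESeq2 (0.0330). It passed in limma without wild-type library 2 (adjusted p = 0.0120). Ifitm2, the most abundant of the family, was at 896, 1025 and 672 against 824, 1023 and 936, and the groups overlapped fully (log2 fold change 0.12 ± 0.16, limma adjusted p = 0.694). The exons of Ifitm2 overlap those of Gm45717 on the same strand.

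Slfn4 (chr11:83175186-83190216, plus strand), a Schlafen gene known from myeloid cells and macrophage activation, was at 141, 335 and 185 normalised reads in the wild-type libraries and at 753, 1419 and 1015 in the knockout libraries. The lowest knockout library was above the highest wild-type library. The mean rose 4.82-fold, from 220.4 ± 101.5 to 1062 ± 335 (SD, n = 3 each). On the log2 scale the difference was 2.31 ± 0.36 (SE), with an adjusted p of 0.0141 in limma. The call was lost without wild-type library 3 (adjusted p = 0.0751) or knockout library 3 (0.0738).

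The other Schlafen genes at the same locus, which include regulators of lymphocyte quiescence, did not pass the test. Slfn2, whose product maintains T-cell quiescence, was at 5350.2, 3519 and 5598 normalised reads in the wild-type and 5682, 4432 and 5957 in the knockout libraries (log2 fold change 0.17, limma adjusted p = 0.645). Slfn9 had 6129, 3585 and 6099.6 against 5141, 4334 and 4568 (-0.13, limma adjusted p = 0.750). In both genes wild-type library 2 was the lowest of all 6 libraries, and without it Slfn9 was called lower (limma, log2 fold change -0.39, adjusted p = 0.0305).

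The summed markers of myeloid cells were higher in the knockout libraries, as were Ifitm3, Ifitm6 and Slfn4. The summed level of 16 neutrophil markers was 116, 440 and 184 CPM in the wild-type and 1196, 1240 and 944 in the knockout libraries, and 9 of the 16 rose. That of 15 monocyte and macrophage markers was 72.4, 129 and 59.4 against 186, 316 and 253 CPM, and 7 of the 15 rose. Of the 15, 13 had a positive log2 fold change in limma. C1qa (-0.32), C1qc (-0.23) and C1qb (0.08) did not rise with the others, and none of them was called. Both sums were higher in every knockout library (exact permutation p = 0.1 each, the smallest 3 against 3 can give). The defining neutrophil marker Ly6g stayed low, between 2.00 and 16.8 normalised reads. Among wild-type libraries, library 2 was the highest for Ifitm3, Ifitm6, Slfn4 and both marker sums. Among knockout libraries, library 1 was the lowest for the same members and for the monocyte and macrophage sum. For the neutrophil sum, knockout library 3 was the lowest. The number of cells of a type and the amount of its RNA per cell cannot be told apart in bulk tumours, and the part of myeloid cells in these results was not tested.

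**Figure D2:**
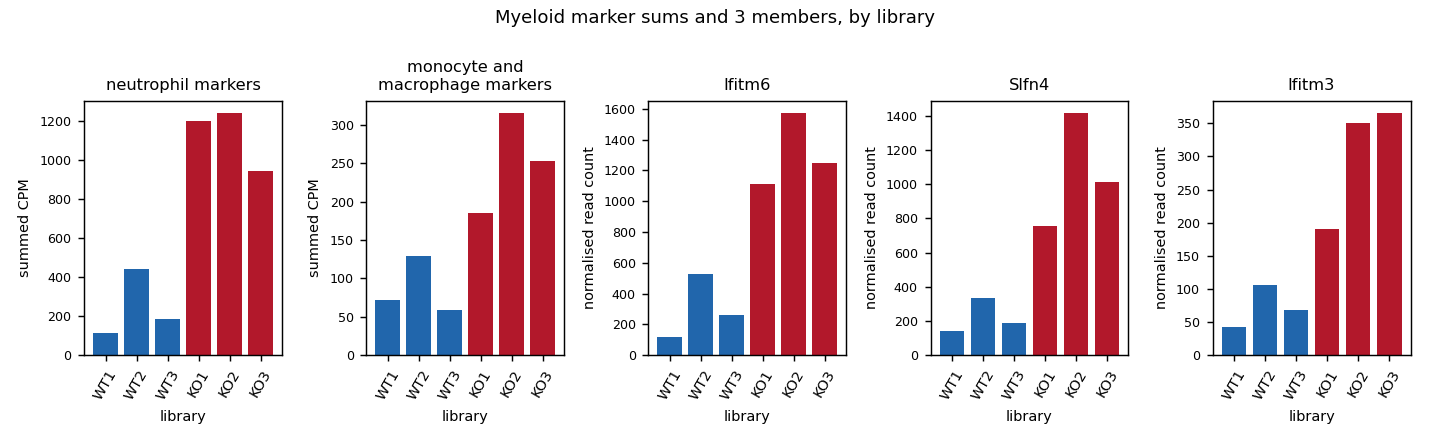
The 2 panels on the left show the summed CPM of the neutrophil markers and of the monocyte and macrophage markers, and the 3 on the right the normalised read counts of Ifitm6, Slfn4 and Ifitm3, with 1 bar per library (blue, wild type; red, knockout). All 3 knockout bars stand above all 3 wild-type bars in each panel, and wild-type library 2 is the tallest of its group in each.

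The members that fell were abundant and changed little. Bst2 (tetherin, chr8:71534255-71537456, minus strand), which holds budding virus at the cell surface, was at 1015, 1054 and 999.6 normalised reads in the wild-type and at 738, 825 and 808 in the knockout libraries. Every knockout library was below every wild-type library. The mean went from 1023 ± 27.9 to 790.2 ± 46.3 (SD, n = 3 each), or by -0.37 ± 0.10 on the log2 scale (limma adjusted p = 0.0474). Ifi27 (chr12:103434211-103440239, plus strand), which encodes a small interferon-induced membrane protein, was at 1244, 1139 and 1149.6 against 827, 868 and 988. These groups did not overlap either, and the log2 fold change was -0.40 ± 0.11 (limma adjusted p = 0.0458). Both missed the threshold in edgeR (adjusted p = 0.0561 for Bst2 and 0.0566 for Ifi27) and passed in DESeq2 (0.0179 and 0.0199). Neither passed without any 1 of the 6 libraries (limma adjusted p from 0.0719 to 0.158 for Bst2 and from 0.0527 to 0.190 for Ifi27).

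**Figure D3:**
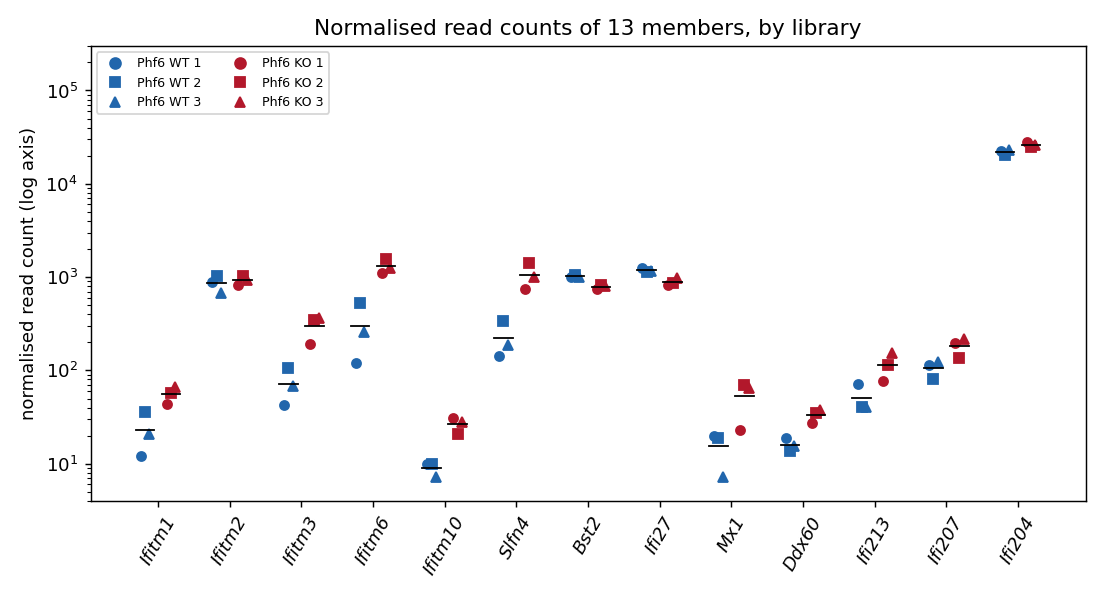
Normalised read counts (log axis) of 13 members in each library, wild type in blue on the left and knockout in red on the right of each gene, with the group mean as a line. Ifitm3, Ifitm6, Ifitm10 and Slfn4 stand clearly higher in the knockout libraries, whereas Bst2 and Ifi27 are tightly grouped and slightly lower.

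Isg15, Rsad2 and the Ifit genes, all strongly induced by type I interferon, did not pass the test. Isg15, a ubiquitin-like protein attached to other proteins, was at 274, 494 and 239 normalised reads in the wild-type and 237, 548 and 229.7 in the knockout libraries. The group means were nearly equal at 336 ± 138 and 338 ± 182 (SD, n = 3 each), and the log2 fold change was -0.04 ± 0.42 (limma adjusted p = 0.968). Rsad2 (viperin), which makes a chain-terminating nucleotide, had 88.1, 142 and 89.5 against 105, 188 and 124 (log2 fold change 0.37 ± 0.27, limma adjusted p = 0.432). In both genes library 2 of each group was the highest and the groups overlapped. None of the 4 Ifit genes tested, whose products bind viral RNA, passed in limma, edgeR or DESeq2, and none had an unadjusted p under 0.05 in limma. Ifit2 led them with 1319, 1039.9 and 1312 against 1318, 1097 and 1176 (log2 fold change -0.03 ± 0.12, limma adjusted p = 0.915). Ifit3 was near the filter at 18.02, 26.7 and 23.5 against 27.1, 37.4 and 23.1 (0.32 ± 0.30, adjusted p = 0.539).

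Library number 2 stood apart from the other libraries of its group in a part of the members. It was the highest in both groups in 12 of 64 members (18.8%), beside 20.9% of all genes tested, among them Isg15, Rsad2, Oasl2, Mx2, Irf9, Ifit1 and Ifit3. It was the lowest in both groups in 22 of 64 (34.4%), beside 18.7% of all genes, among them Slfn2, Slfn5, Slfn9, Ifi203, Irgm1 and Ifit2. Members of the Ifit family were thus found on both sides. The labels give the number no meaning, and it was not used as a pairing.

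**Figure D4:**
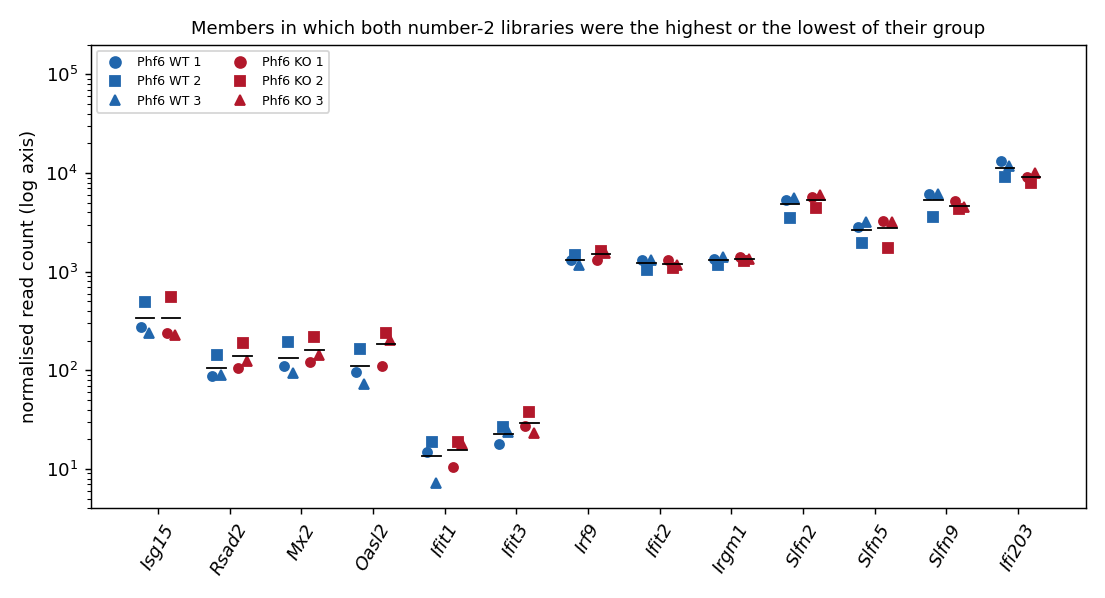
Normalised read counts (log axis) of 13 members in each library, wild type in blue and knockout in red, with squares for library 2 and a line for each group mean. The squares are at the top of both groups from Isg15 to Irf9 and at the bottom of both from Ifit2 to Ifi203.

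The Mx genes encode dynamin-like GTPases that trap viral components, and whether the transcripts here make working proteins was not tested. Mx1 had 20.0, 18.8 and 7.23 normalised reads in the wild-type and 22.9, 70.6 and 65.2 in the knockout libraries. Knockout library 1 lay just above the wild-type libraries and the other 2 well above. The log2 fold change of 1.62 ± 0.49 passed in DESeq2 (adjusted p = 0.0126) and not in limma (0.0729) or edgeR (0.0560), and in limma it passed without knockout library 1 (0.0287). Mx2, annotated as a polymorphic pseudogene, was at 110.1, 193 and 94.0 against 122, 219 and 142 (log2 fold change 0.31 ± 0.30, limma adjusted p = 0.579).

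None of the 7 Oas genes tested, which make the 2-5A that activates RNase L or are relatives of those that do, passed in limma, edgeR or DESeq2, and 1 had an unadjusted p under 0.05 in limma. That gene was Oas1a, with 476, 436 and 387 normalised reads in the wild-type and 228, 361 and 357 in the knockout libraries. All knockout libraries were lower, and the log2 fold change was -0.48 ± 0.19 (limma adjusted p = 0.156). Oas3 was at 1083, 641 and 585 against 511, 595 and 810.4, with wild-type library 1 the highest (log2 fold change -0.24 ± 0.26, limma adjusted p = 0.620). Oas1c was level at 612, 525 and 625 against 597, 535 and 628. Oasl2 was at 95.1, 163 and 72.3 against 112, 241 and 204 (log2 fold change 0.75 ± 0.36, limma adjusted p = 0.237). Isg20, an exonuclease that degrades viral RNA, had 279, 219 and 278 against 195, 172 and 199. It was lower in every knockout library and did not pass (log2 fold change -0.45 ± 0.16, limma adjusted p = 0.125).

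The guanylate-binding proteins (Gbp) and Irgm proteins are GTPases that act on microbe-holding vacuoles, and none of the 9 and 2 genes tested passed in limma, edgeR or DESeq2. In limma, 2 Gbp genes (Gbp6 and Gbp10) and 0 Irgm genes had an unadjusted p under 0.05. Gbp9 was at 1699.7, 1531 and 1656 normalised reads in the wild-type and 1748, 1816 and 2731 in the knockout libraries. Gbp4 had 2310.2, 2017 and 2035 against 2077, 2000.4 and 2675. Knockout library 3 was the highest of all for both, and neither passed (limma adjusted p = 0.230 for Gbp9 and 0.743 for Gbp4). Gbp4, Gbp8 and Gbp9 share exons in the annotation, and the exons of Gbp6 and Gbp10 overlap those of Gm43302, so their counts are uncertain. Irgm1, which also acts in autophagy, was at 1356, 1172 and 1409.9 against 1406, 1268 and 1356, and Irgm2 at 216, 187 and 339 against 353, 269 and 315. The exons of Irgm2 overlap those of Igtp.

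The Ifi200 genes encode nuclear and cytosolic DNA-binding proteins. None of the 9 passed in limma or edgeR, 3 had an unadjusted p under 0.05 in limma, and 3 passed in DESeq2. Ifi204 was the most abundant member of all, with 22353, 20379 and 23105 normalised reads in the wild-type and 27997, 24746 and 26171 in the knockout libraries. The groups did not overlap, at a difference of only 0.26 ± 0.09 on the log2 scale (adjusted p = 0.0902 in limma and 0.0432 in DESeq2). Ifi213 was at 71.1, 40.5 and 40.7 against 76.2, 113 and 155 (log2 fold change 1.14 ± 0.31, adjusted p = 0.0517 in limma, 0.0521 in edgeR and 0.00991 in DESeq2). Ifi207 had 113, 80.0 and 123 against 195, 135 and 216 (0.77 ± 0.24, adjusted p = 0.0756 in limma and 0.0230 in DESeq2). In limma, Ifi213 passed without knockout library 1 (adjusted p = 0.0389) and Ifi207 without knockout library 2 (0.0488). Ifi203, whose exons overlap those of Mndal, had 13142, 9051 and 11657 against 9188, 7863 and 10044 (-0.31 ± 0.14, limma adjusted p = 0.218), and it was called lower without wild-type library 2 (0.0311).

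Among the sensors of viral RNA, Ddx58 (RIG-I) was at 798, 716 and 739 normalised reads in the wild-type and 718, 680.3 and 923 in the knockout libraries, with overlap. Ifih1 (MDA5) had 473, 432 and 497 against 632, 535 and 593, without overlap (log2 fold change 0.33 ± 0.12, limma adjusted p = 0.137). Ddx60, a helicase reported to act with RIG-I, was low at 19.0, 13.8 and 15.4 against 27.1, 35.3 and 38.1. All its knockout values were higher, and the log2 fold change of 0.97 ± 0.28 missed the threshold in limma (adjusted p = 0.0623), edgeR (0.0586) and DESeq2 (0.110). Neither transcription factor among the members passed. Irf9, the DNA-binding subunit of the ISRE complex, was at 1298, 1462 and 1172 against 1307, 1611 and 1559.5 (log2 fold change 0.19, limma adjusted p = 0.363). The exons of Irf9 overlap those of Rnf31 on the same strand. Irf7, the amplifier of type I interferon production, had 357, 363 and 269 against 285, 421 and 431 (0.19, limma adjusted p = 0.601), and its exons overlap those of Phrf1 on the other strand.

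The Trim30 genes encode ubiquitin ligase-like proteins, and none of the 3 passed in limma, edgeR or DESeq2 or had an unadjusted p under 0.05 in limma. Trim30a, which dampens inflammatory signalling, was at 2204, 1842 and 1861 normalised reads in the wild-type and 1655, 1831 and 2002 in the knockout libraries. Trim30d had 236, 179 and 217 against 187, 232 and 308. Both overlapped between the groups. Ifi27l2a, the relative of Ifi27, was at 28.0, 18.8 and 15.4 against 17.7, 22.8 and 22.1. The 7 members too low to test, Gbp11, Ifit1bl2, Ifitm5, Oas1f, Oas1g, Slfn14 and Slfnl1, lay between 0 and 12.0 normalised reads in all libraries.

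Per length of exon, the members covered a wide range of levels. Ifi204 led with an RPKM of 137 (reads per kilobase of exon, scaled to library size), followed by Slfn2 with 62.1, Ifi203 with 30.7, Ifitm2 with 27.7 and Bst2 with 20.4. Isg15 was at 9.03 and Ifit2 at 6.25 on this scale. Of the members that rose, Ifitm3 was at 5.61, Slfn4 at 3.28 and Ifitm10 at 0.0758, all as means over the 6 libraries.

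The other genes of the pathway, taken by list, gave the following counts, and no list was tested as a set. Of all 17993 genes tested, 5.32% rose, 3.43% fell and 25.2% had an unadjusted p under 0.05 in limma. None of 8 interferon receptors and kinases passed in limma, edgeR or DESeq2, and 1 had an unadjusted p under 0.05 in limma. Of 9 STAT and IRF factors, Irf5, a factor prominent in myeloid and B cells, rose from 64.1, 112 and 52.4 normalised reads to 193, 335 and 306 (log2 fold change 1.88 ± 0.31, limma adjusted p = 0.00868). Of 13 nucleic acid sensors and adaptors, 2 rose and 2 fell. Unc93b1, which escorts endosomal Toll-like receptors, rose by 0.67 ± 0.09 and Tlr9, a receptor for DNA, by 1.70 ± 0.45 (limma adjusted p = 0.00434 and 0.0475). Mb21d1, the DNA sensor cGAS, fell from 664, 518 and 597 normalised reads to 250.4, 352 and 357 (log2 fold change -0.90 ± 0.17, limma adjusted p = 0.0136). Mavs, the adaptor of RIG-I and MDA5, had a log2 fold change of -0.43 ± 0.11 (limma adjusted p = 0.0385).

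Of 8 nucleases and editors, Samhd1, which depletes nucleotides, rose from 103, 198 and 81.3 normalised reads to 316, 751 and 699 (log2 fold change 2.20 ± 0.44, limma adjusted p = 0.0299). Of 8 negative regulators, Trim24 rose (0.38 ± 0.09, limma adjusted p = 0.0319) and the phosphatase gene Ptpn6 fell (-0.40 ± 0.09, adjusted p = 0.0219). Of 46 other interferon-stimulated genes, 4 rose and 0 fell in limma, beside 5.32% and 3.43% of all genes. In limma, 12 had an unadjusted p under 0.05, beside 25.2% of all genes. A positive log2 fold change was found in 22 (median -0.01), beside 48.3% of all genes. The 4 that rose were Mlkl, the executor of necroptosis (2.17 ± 0.29, limma adjusted p = 0.00428), Samd9l (1.95 ± 0.25, 0.00382), Tdrd7 (0.65 ± 0.17, 0.0433) and Trim34a (0.51 ± 0.13, 0.0390). Of 10 interferon-gamma-type targets, the GTPase gene Iigp1 rose from 187, 229 and 221 normalised reads to 489, 406 and 642 (1.24 ± 0.18, limma adjusted p = 0.00529), and the list's median was 0.53. The only interferon gene tested, Ifng, had 15.01, 41.5 and 24.4 against 34.4, 32.2 and 60.2, with overlap (0.66 ± 0.38, limma adjusted p = 0.320). With each of the 6 libraries left out in turn, the calls of Unc93b1, Mlkl, Samd9l and Iigp1 passed in all 6 fits, that of Irf5 in 5, of Mb21d1 in 4, of Tlr9 and Samhd1 in 2, of Mavs, Trim24, Ptpn6 and Tdrd7 in 1 and of Trim34a in 0. Beside these counts stand the summed B-cell markers, at 4.72, 5.08 and 4.06 CPM in the wild-type and 8.06, 18.3 and 12.8 in the knockout libraries, with 7 of 10 tested called higher. The sum of 9 conventional dendritic cell markers was 20.4, 24.1 and 12.5 against 28.0, 56.9 and 62.5 CPM, and of 7 tested 1 rose (Flt3) and all 7 had a positive log2 fold change. The sum of 7 plasmacytoid dendritic cell markers was 19.4, 21.3 and 22.1 against 28.7, 29.2 and 29.9 CPM, without overlap. Its genes did not move together. Of 5 tested, Ccr9 and Spib rose, while Pacsin1 (log2 fold change 0.32), Upb1 (-0.52) and Ly6d (-0.50) did not pass. Siglech, too low to test, was at 0, 1.98 and 0 normalised reads against 2.09, 2.08 and 5.01. The part of these cells was not tested.

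**Figure D5:**
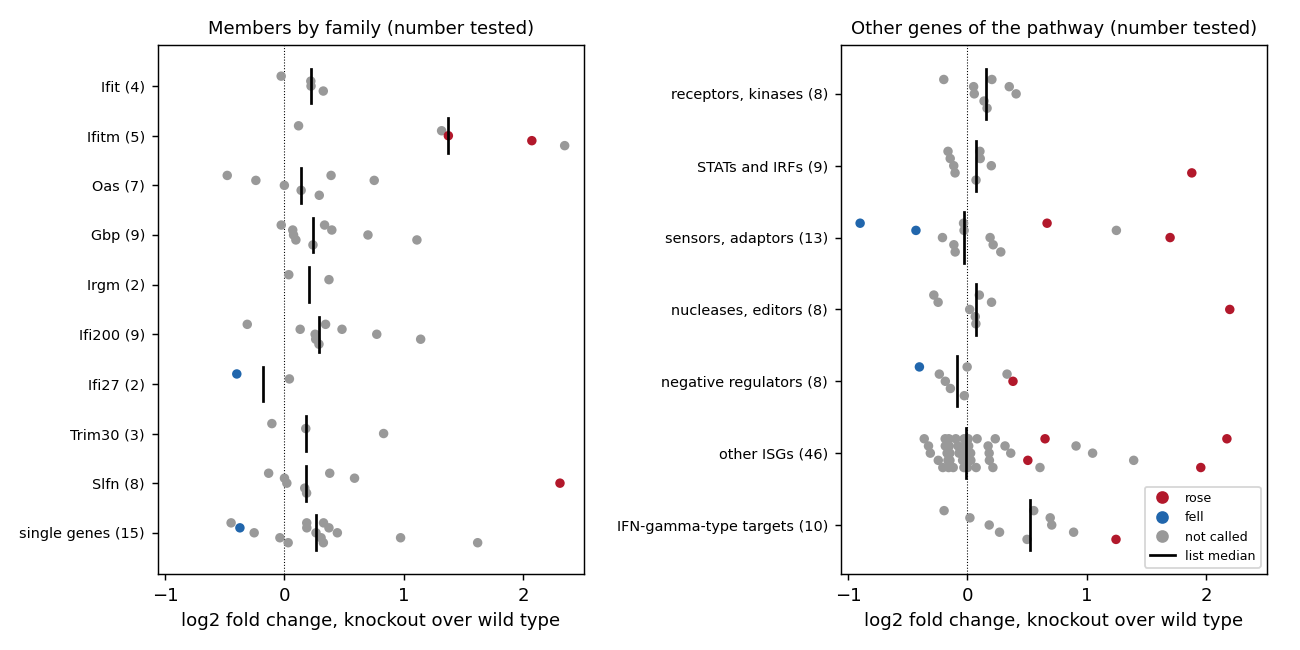
Each point is the log2 fold change of 1 gene, knockout over wild type, for the members by family on the left and the other genes of the pathway by list on the right; red points rose, blue points fell, grey points did not pass (limma), and the black line is the list's median. The Ifitm median of 1.37 stands to the right of the other families, whose medians lie between -0.18 and 0.29.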

How the data were processed

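PolyA RNA-seq of 6 tumours was analysed, 3 per genotype. Per the submitters' processing notes, the tools named are bcl2fastq 1.8.4, STAR 2.6.0a, featureCounts and DESeq2, with the genome GRCm38. Neither the annotation nor the strand setting nor the treatment of multi-mapping reads is given in the sources used here, and counts of overlapping or near-identical genes are uncertain. The deposited values are a normalised signal: gene read counts that the authors divided by 1 size factor per library. Whole reads were recovered from the steps between values (100.0% of values within 0.01 of a whole read in every library). The 8 rows with no identifier held at most 0.00106% of reads and were left out.

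Genes with at least 10 normalised reads in at least 3 libraries (17993) were tested with limma 3.58.1 (trend, robust) on log2(value + 2), which understates the change of low genes, with Benjamini-Hochberg adjustment over all genes tested and a threshold of 0.05. edgeR 4.0.16 (quasi-likelihood) and DESeq2 1.42.0 on the recovered reads were alternatives, as were other scalings, filters and pseudocounts, the replicate number as a block and leaving out each library. Marker sums are in CPM of the recovered reads after TMM scaling. R 4.3.3 and Python 3.11.15 were used, and the fit was tested on simulated data. Gene positions and exon lengths are from GENCODE M21, and promoters from RefSeq.

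The members and lists were chosen with earlier results of these data known. Named genes are Phf6, members called by any of the 3 tools, the 2 most abundant of each family and the 3 with the highest and lowest log2 fold changes. Untested members and up to 4 called genes per pathway list are also named. Where fewer than 2 genes of a list were called, the plan added its 2 most abundant, and not all of these are described here. Cd3e, Ly6g and further members and list genes were chosen after their values were seen. For 1 further gene of the pathway lists, the result is not reported here.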

Additional observations from a re-analysis of the deposited data

How the results depend on the processing

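Called genes numbered 1575 in all, and 253 to 1941 with 1 library left out, the fewest without knockout library 3. Of the members, 3 rose in limma beside 957 of all 17993 genes, 9 in DESeq2 beside 1329, and 6 with library totals as scaling beside 1213. With no filter, 5 members rose beside 1032 of 23306 genes, and with a pseudocount of 8, 5 rose beside 987. Without both libraries numbered 2, a choice made after seeing the data, 8 rose beside 1253. With 1 library left out, 0 to 5 members rose, beside 180 to 1155 of all genes. That number was 0 without knockout library 3, where 10 members were higher at an unadjusted p under 0.05. The number of members that fell was 2 in limma, where 618 of all genes fell, and 0 in edgeR, where 511 did. In edgeR 4 were lower at an unadjusted p under 0.05. It was 0 with upper-quartile scaling, library totals and no filter, where 4, 2 and 5 were lower at an unadjusted p under 0.05. In these settings 425, 300 and 599 of all genes fell. With 1 library left out it was 0 to 2, beside 73 to 786 of all genes. The 2 there were Ifi203 and Slfn9, without wild-type library 2, and Bst2 and Ifi27 passed in no such fit. The members' median ranged from 0.11 to 0.28 with 1 library left out. The causes were not tested. For the counts at an unadjusted p under 0.05 in these alternatives, the share of all genes was not counted. In the main fit that share was 25.2%, both directions together.

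With the replicate number as a block, 2568 genes were called (14.3%), 9 members rose beside 8.11% of all genes and 3 fell beside 6.16%. Whether the numbers pair the samples is not settled by these values, as each group holds only 3 libraries. The deviations of same-numbered libraries correlated at 0.01, 0.50 and 0.14. The libraries numbered 2 had the highest correlation of all pairs. Not every library correlated best with its own number, such as wild-type library 3, which was closest to knockout library 1 (0.38).

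Of 64 members, 20 changed sign under at least 1 of 17 alternatives, each with a log2 fold change within 1 SE of 0. Ifi214 (0.34) was -0.16 without both number-2 libraries. Gbp5 (-0.0269) was 0.0216 in edgeR, 0.0174 in DESeq2, 0.00751 with upper-quartile scaling, 0.0551 with library totals, 0.00614 without both number-2 libraries. Isg15 (-0.038) was 0.0315 in edgeR, 0.0259 in DESeq2, 0.0452 with library totals. Oas1c (-0.00069) was 0.0176 in edgeR, 0.0133 in DESeq2, 0.000883 with TMM, 0.0344 with upper-quartile scaling, 0.0828 with library totals. Irgm1 (0.0364) was -0.00209 without both number-2 libraries. Slfn3 (0.00018) was -0.00573 in edgeR, -0.00967 in DESeq2, -0.24 without both number-2 libraries. Ifi27l2a (0.0414) was -0.0674 without both number-2 libraries. Ifit2 (-0.0275) was 0.00755 with upper-quartile scaling, 0.0561 with library totals. With 1 library left out, the log2 fold change ranged from -0.0802 to 0.39 for Ifi206, -0.21 to 0.12 for Gbp5, -0.0202 to 0.18 for Gbp2, -0.10 to 0.12 for Ddx58, -0.45 to 0.28 for Isg15, -0.0543 to 0.16 for Gbp4, -0.42 to 0.0345 for Oas3, -0.0785 to 0.0639 for Oas1c, -0.0326 to 0.24 for Oas1b, -0.00867 to 0.35 for Trim30d, -0.0525 to 0.25 for Ifitm2, -0.0430 to 0.0900 for Irgm1, -0.19 to 0.32 for Slfn5, -0.0426 to 0.30 for Slfn2, -0.20 to 0.12 for Slfn3, -0.13 to 0.26 for Ifi27l2a, -0.14 to 0.0333 for Ifit2, -0.13 to 0.47 for Ifit1bl1 and -0.12 to 0.46 for Ifit1.

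Ifitm10, Mx1, Ddx60, Ifit1 and Ifit3 rested on few reads, and 3 libraries per group limit the precision of every value.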

Other observations

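Library 2 was the highest of both groups in Irf1, Socs1, Cd274 and Apol9a, which are not members and were chosen for this after their values were seen. Irf1, a transcription factor induced by interferon gamma, was at 5949, 11679 and 4720 normalised reads in wild-type libraries 1 to 3 and at 5964, 10373 and 6623 in knockout libraries 1 to 3. Socs1, an inhibitor of JAK kinases, was at 1158, 1986 and 906 against 1106, 1792 and 1047. Cd274, the gene of the checkpoint ligand PD-L1, was at 783, 2196 and 688 against 802.2, 2452 and 1052. Apol9a was at 5.01, 39.5 and 3.62 against 4.17, 53.0 and 3.01. Other genes of the lists did not share it, such as Iigp1, in which knockout library 2 was the lowest of its group.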
